A study of Mus musculus with 9 samples.

Results

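The genes described here are 6 genes of mast cells and basophils, Cpa3, Hdc, Fcer1a, Ms4a2, Fcer1g and Mitf, measured by 8 of the 22690 probe sets of an Affymetrix array. They were chosen by name, with earlier results of these data known. All 6 were among the 12393 genes that had a probe set annotated to them alone. Hdc and Mitf had 2 probe sets each and the other 4 genes had 1.

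RNA came from KSL cells, the sorted c-Kit+, Sca-1+, Lin-, IL7Ra- cells of mouse bone marrow, a population that contains haematopoietic stem cells and multipotent progenitors. All mice had a C57BL/6 background. There were 3 arrays in each of 3 groups. RUNX1(41-214) cells had been transduced with a retroviral vector that expresses residues 41 to 214 of the transcription factor RUNX1, and were taken 4 months after transduction and transplantation. Runx1KO cells came from Runx1floxed/floxed MxCre+/- mice, 3 months after poly IC. Control cells came from Runx1floxed/floxed MxCre-/- mice, also 3 months after poly IC, so that they carried the floxed alleles and had received the inducer without the recombinase. Mx-Cre is driven by an interferon-responsive promoter and is not restricted to blood stem cells. The labels name no poly IC for the RUNX1(41-214) group, and cells given an empty vector were not analysed here, so the effects of the fragment, of transduction and of transplantation cannot be told apart. Differences in poly IC and in time (4 months after transplantation against 3 months after poly IC) cannot be told apart from these either. The labels call the replicates biological without saying whether each was a separate mouse or a pool, and the p-values measure the spread between these samples.

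Mast cells and basophils are granulated effector cells of allergy that derive from marrow progenitors. Both display the high-affinity IgE receptor, built from an alpha chain that binds IgE (Fcer1a), a beta chain that amplifies the signal (Ms4a2) and a gamma chain that carries the signal into the cell and also serves other Fc receptors (Fcer1g). Crosslinking of the receptor releases granules that hold histamine, made by histidine decarboxylase (Hdc), and, in mast cells, the protease carboxypeptidase A3 (Cpa3). Mitf is a transcription factor that mast cells need, and it acts together with Gata2 in this lineage. Cpa3 and Hdc transcripts are also known from early progenitors with mast cell or basophil potential.

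Promoter sequence is shown for the 3 genes that rose in at least 1 comparison and for Fcer1a, the receptor chain set beside Ms4a2. The sequences are the 250 bases before a RefSeq start site in GRCm38.p6, read along the gene. Capitals mark 6-base matches to TGTGGT or TGCGGT (bound by RUNX proteins), AGATAA (bound by GATA factors), and CATGTG or CACGTG (bound by Mitf), on either strand.
Cpa3, chr3:20242182-20242431, minus strand: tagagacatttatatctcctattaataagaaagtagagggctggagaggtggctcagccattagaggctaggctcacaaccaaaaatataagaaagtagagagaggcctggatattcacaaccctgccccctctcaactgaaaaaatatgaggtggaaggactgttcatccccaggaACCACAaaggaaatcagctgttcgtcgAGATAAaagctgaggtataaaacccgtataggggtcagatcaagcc
Hdc, chr2:126618679-126618928, minus strand: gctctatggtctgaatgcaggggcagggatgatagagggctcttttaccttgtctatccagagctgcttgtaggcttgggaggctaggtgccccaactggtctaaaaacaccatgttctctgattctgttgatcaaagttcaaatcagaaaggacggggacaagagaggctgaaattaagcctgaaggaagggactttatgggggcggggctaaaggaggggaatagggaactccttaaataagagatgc
Ms4a2, chr19:11623720-11623969, minus strand: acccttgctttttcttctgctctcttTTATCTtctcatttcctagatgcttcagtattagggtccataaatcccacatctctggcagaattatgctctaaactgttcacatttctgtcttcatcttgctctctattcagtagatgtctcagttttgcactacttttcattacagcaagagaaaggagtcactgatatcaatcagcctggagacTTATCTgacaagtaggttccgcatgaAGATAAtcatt
Fcer1a, chr1:173227230-173227479, minus strand: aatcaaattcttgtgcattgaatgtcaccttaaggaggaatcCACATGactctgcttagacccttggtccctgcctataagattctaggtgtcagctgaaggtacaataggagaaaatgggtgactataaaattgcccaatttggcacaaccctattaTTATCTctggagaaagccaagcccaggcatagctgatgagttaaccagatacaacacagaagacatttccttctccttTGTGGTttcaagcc

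The Cpa3 window held ACCACA, the reverse complement of TGTGGT, from 73 to 68 bases before the start, and AGATAA from 46 to 41 bases before it. Among 32851 windows of the same length, 14% held TGTGGT, 9.99% held AGATAA and 1.67% held both. Ms4a2 had 3 matches to AGATAA, of which 2 lay within the last 37 bases before the start. Fcer1a also held TGTGGT and AGATAA, with a match to CATGTG (in 12.3% of windows) besides. No match to the 5 motifs lay in the Hdc window or in that of Fcer1g. The first of 3 Mitf windows held ACCACA, and the other 2 had no match. TGCGGT (in 5.1% of windows) and CACGTG (in 6.02%, its own reverse complement) were found in 0 windows of the 6 genes. A match in these letters is a description of the sequence and was not set against binding.

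Signals were analysed as log2(signal + 16) after quantile normalization, in a limma fit over all 9 arrays, and a gene passes when its Benjamini-Hochberg adjusted p, taken across the 12393 genes, is under 0.05. Median signals per array ran from 125 to 147. The log2 ratio of 3′ to 5′ Gapdh control signal, a sign of RNA integrity, was 2.13 in Runx1KO replicate 3 and 1.85 in control replicate 2, against 0.98 to 1.29 on the other 7 arrays. Runx1, the deleted gene, had signals of 1815, 1958 and 2093 in RUNX1(41-214), 2417, 3476 and 2563 in Runx1KO, and 1701, 931 and 1475 in control cells, so it was not lower in the knockout. Where its probes lie relative to the deleted part was not known here, and the signal checks neither the deletion nor the labels. Of the markers of the gate, Kit was at percentile 95.8 of all genes by mean signal, and Ly6a had no probe set annotated to it alone. Among 7 measured gate and stem or progenitor markers, Kit rose and Procr fell in RUNX1(41-214) against control. Procr was at -0.87 ± 0.16 there (limma adjusted p = 0.00991) and at -0.92 ± 0.16 relative to Runx1KO (adjusted p = 0.0168). Il7r mRNA, whose protein the gate excludes, had deposited signals of 24.6 to 43.8 in RUNX1(41-214), 379.55 to 1179 in Runx1KO and 279.51 to 1400 in control cells, and fell in RUNX1(41-214) relative to both other groups.

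Cpa3, the granule protease, rose in both RUNX1(41-214) and Runx1KO cells relative to control. The deposited signals were 5146, 5061 and 4110.45 in RUNX1(41-214) cells, 2947, 2344 and 3257 in Runx1KO cells, and 272, 234 and 576 in control cells. The arrays of the 3 groups did not overlap. Among the 22626 probe sets of its array, control probe sets left out, Cpa3 lay at percentile 98.1 to 98.9 in RUNX1(41-214), 93.3 to 97.1 in Runx1KO and 56.8 to 71.2 in control cells. On the log2 scale it averaged 12.20 ± 0.16 in RUNX1(41-214), 11.46 ± 0.30 in Runx1KO and 8.43 ± 0.67 in control cells (SD, n = 3 each).

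In RUNX1(41-214) against control cells, Cpa3 was 13.7-fold higher (log2 fold change 3.77 ± 0.28, SE, limma adjusted p = 2.60e-05). Against control, Runx1KO cells were 8.22-fold higher (3.04 ± 0.28, adjusted p = 0.000467). Among all genes these fold changes ranked 4 and 1 from the highest. Both comparisons share the 3 control arrays. RUNX1(41-214) cells were at 0.73 ± 0.28 relative to Runx1KO cells, which did not pass (adjusted p = 0.346), with a 95% interval of 0.12 to 1.35. In sorted bulk RNA more cells of a type and more RNA per cell cannot be told apart.

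Hdc, which makes histamine, rose in RUNX1(41-214) cells and, by its brighter probe set, had a wider spread in the other groups. Its brighter probe set gave 595, 639.62 and 681 in RUNX1(41-214), 381, 95.4 and 529 in Runx1KO, and 35.7, 6.35 and 83.1 in control cells. The 3 groups did not overlap, although Runx1KO replicate 2 lay close to the highest control array. The dimmer probe set gave 188, 219 and 179 in RUNX1(41-214), 113, 31.3 and 139 in Runx1KO, and 15.6, 17.2 and 14.1 in control cells. It kept the same order of groups, again with Runx1KO replicate 2 the lowest of its group. Both carry the array's suffix for probes that can match several transcripts.

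By its brighter probe set Hdc was 13.9-fold higher in RUNX1(41-214) than in control cells (log2 fold change 3.80 ± 0.58, limma adjusted p = 0.00288), which ranked 3 from the highest among all genes. The dimmer one gave 2.82 ± 0.37 (adjusted p = 0.00172 over all probe sets). In Runx1KO against control cells Hdc was at 2.60 ± 0.58, rank 7 from the highest, without passing (adjusted p = 0.104, 95% interval 1.33 to 3.87). There the dimmer probe set gave 1.64 ± 0.37, which did not pass either (adjusted p = 0.161 over all probe sets). With single arrays left out, the value of the brighter one ran from 2.05 (without control replicate 2) to 3.30 (without Runx1KO replicate 2), and only the omission of Runx1KO replicate 2 gave a pass (adjusted p = 0.0314, against 0.1004 to 0.330 in the other 8 omissions). Without the 2 arrays of highest Gapdh ratio it was 1.56 (adjusted p = 0.266). RUNX1(41-214) cells stood at 1.20 ± 0.58 relative to Runx1KO cells and did not pass (adjusted p = 0.514, 95% interval -0.07 to 2.47).

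**Figure D1:**
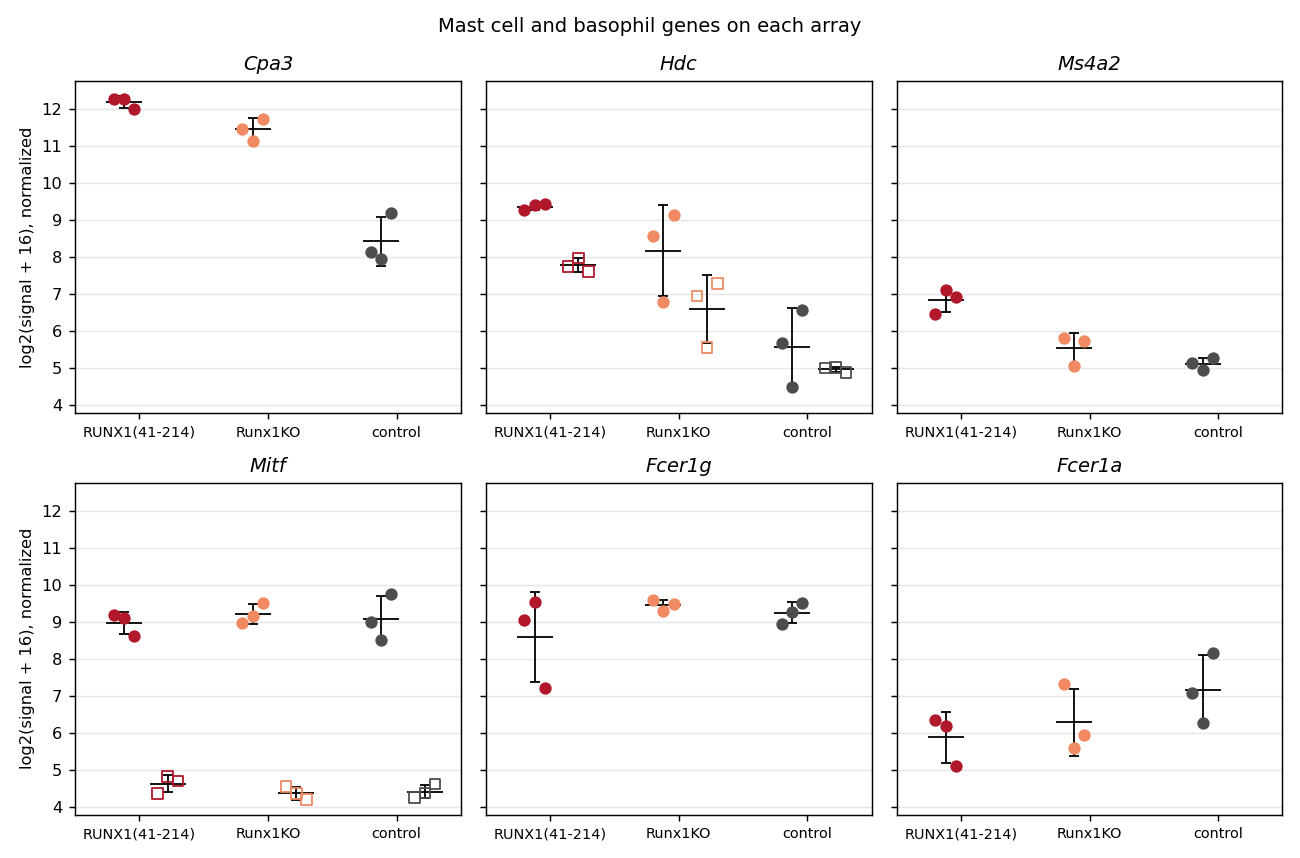
Normalized log2(signal + 16) of each gene (y axis) on each array, by group (x axis). Filled circles are the probe set used for the gene, open squares the other probe set of Hdc and of Mitf, and bars the mean ± SD of 3 arrays; Cpa3 and Hdc are lowest on the control arrays, while Mitf overlaps among the groups.

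Among the chains of the IgE receptor, Ms4a2 was the only one to pass. Ms4a2, the beta chain, rose in RUNX1(41-214) cells at low signal. The gamma chain Fcer1g did not pass, and the alpha chain Fcer1a had its lowest mean in RUNX1(41-214) cells without passing.

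Ms4a2 had signals of 65.5, 109 and 104 in RUNX1(41-214), 40.05, 17.4 and 36.6 in Runx1KO, and 19.25, 15.45 and 23.4 in control cells. RUNX1(41-214) arrays lay above all others, whereas the Runx1KO and control arrays overlapped. These are dim signals: among the probe sets of its array it stood at percentile 42.2 to 48.4 in RUNX1(41-214), 22.1 to 34.4 in Runx1KO and 19.8 to 26.1 in control cells. Ms4a2 was 3.29-fold higher in RUNX1(41-214) than in control cells (log2 fold change 1.72 ± 0.24, limma adjusted p = 0.00180). It was 2.46-fold higher in RUNX1(41-214) than in Runx1KO cells (1.30 ± 0.24, adjusted p = 0.0220). In Runx1KO against control it was at 0.41 ± 0.24 (adjusted p = 0.809, 95% interval -0.11 to 0.94).

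The difference of Ms4a2 between RUNX1(41-214) and Runx1KO kept its direction when single arrays were left out but not always its call. The adjusted p was 0.0850 without Runx1KO replicate 2, 0.110 without RUNX1(41-214) replicate 2 and 0.0793 without RUNX1(41-214) replicate 3. It was 0.0534 without the 2 arrays of highest Gapdh ratio, and 0.0608 when the 6 arrays of these groups were fitted alone.

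Fcer1a, the chain that binds IgE, had signals of 59.4, 53.0 and 17.8 in RUNX1(41-214), 153, 32.5 and 44.6 in Runx1KO, and 125, 63.8 and 276 in control cells. All RUNX1(41-214) arrays lay below all control arrays in deposited signal, and 1 Runx1KO array lay within the control range. After normalization RUNX1(41-214) replicate 1 (6.35) lay just above control replicate 2 (6.27), so those groups then overlapped. Its log2 fold change was -1.29 ± 0.53 in RUNX1(41-214) relative to control cells (limma adjusted p = 0.257) and -0.88 ± 0.53 in Runx1KO against control (adjusted p = 0.819). Relative to Runx1KO, RUNX1(41-214) cells were at -0.41 ± 0.53 (adjusted p = 0.860).

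Fcer1g had signals of 510.04, 702 and 132 in RUNX1(41-214), 777, 642 and 665 in Runx1KO, and 481, 610.15 and 717 in control cells. RUNX1(41-214) replicate 3 was low and the other 8 arrays lay between 481 and 777. The log2 fold change was -0.65 ± 0.46 in RUNX1(41-214) against control (limma adjusted p = 0.574) and 0.05 without that array. Runx1KO cells were at 0.22 ± 0.46 relative to control (adjusted p = 0.980), with a 95% interval of -0.78 to 1.22. The fit shares its spread among the 3 groups, so the low array enters this interval too. The SDs were 0.14 in Runx1KO, 0.28 in control and 1.23 in RUNX1(41-214), and the adjusted p was 0.911 without that array. RUNX1(41-214) cells were at -0.86 ± 0.46 relative to Runx1KO (adjusted p = 0.573) and at -0.17 without the low array.

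Mitf, the transcription factor, had no comparison that passed. Its brighter probe set gave 563, 510.28 and 379 in RUNX1(41-214), 499.58, 587 and 676 in Runx1KO, and 502, 356 and 838 in control cells, and the control arrays spanned the whole range of the others. The dimmer probe set was between 2.14 and 12.3 on all 9 arrays, at percentile 17.4 of the probe sets of its array or below. The log2 fold change of the brighter one was -0.11 ± 0.30 in RUNX1(41-214) against control (limma adjusted p = 0.915, 95% interval -0.77 to 0.54). It was 0.13 ± 0.30 in Runx1KO against control (adjusted p = 0.980) and -0.24 ± 0.30 in RUNX1(41-214) against Runx1KO (adjusted p = 0.856).

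**Figure D2:**
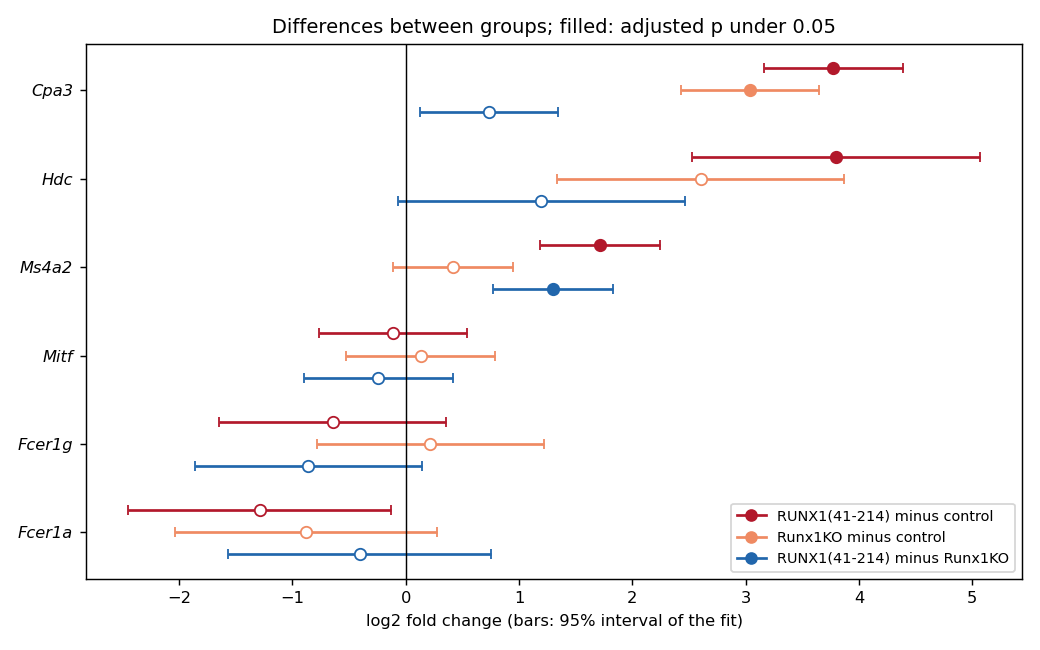
Log2 fold change (x axis) of each gene (y axis) in the 3 comparisons, with the 95% interval of the limma fit. Filled points passed at an adjusted p under 0.05: Cpa3, Hdc and Ms4a2 in RUNX1(41-214) minus control, Cpa3 in Runx1KO minus control, and Ms4a2 in RUNX1(41-214) minus Runx1KO.

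The 6 genes were chosen with earlier results of these data known, so counts over them are not independent of the data. Counted over the 6 genes, 3 rose and 0 fell in RUNX1(41-214) against control, where 4.28% of all genes passed, 1.73% rose and 2.56% fell. In Runx1KO against control 1 rose and 0 fell, where 0.347% of all genes passed, 0.234% rose and 0.113% fell. Relative to Runx1KO, 1 rose and 0 fell in RUNX1(41-214), where 1.36% passed, 0.299% rose and 1.06% fell. Arrays did not overlap for 3 of the 6 in RUNX1(41-214) against control (20.3% of all genes), for 2 in Runx1KO against control (10.5%) and for 3 in RUNX1(41-214) against Runx1KO (18.8%). The median log2 fold change of the 6 was 0.80, 0.32 and 0.25 in RUNX1(41-214) against control, Runx1KO against control and RUNX1(41-214) against Runx1KO, and that of all genes was 0.02, -0.00 and 0.02.

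The arrays on which the genes were high or low were counted within each group. Control replicate 3 was the highest of the control arrays for 6 of 6 genes, as it was for 32.4% of all genes, and control replicate 2 was the lowest for 5 of 6 (35.1% of all genes). Runx1KO replicate 2 was the lowest of its group for 5 of 6 (32.1% of all genes). RUNX1(41-214) replicate 3 was the lowest for 4 of 6 (41.7% of all genes), but the highest for Hdc. The highest array was not shared in Runx1KO cells, where replicates 1 and 3 were highest for 3 genes each, nor in RUNX1(41-214) cells, where replicates 1, 2 and 3 were highest for 3, 2 and 1. Summed signals of 10 neutrophil and granulocyte precursor markers were also highest in control replicate 3 (15825, against 12318 and 9906 in control replicates 1 and 2). They were lowest in Runx1KO replicate 2 within that group (11157, against 15818 and 15117 in Runx1KO replicates 1 and 3). Sums of 10 monocyte, macrophage and dendritic markers were likewise highest in control replicate 3 (9830, against 7260 and 4848 in control replicates 1 and 2). Within Runx1KO these sums were lowest in replicate 2 (5826, against 7649 and 8575 in replicates 1 and 3). Not every marker list had this order. Eosinophil sums were highest in control replicate 1 (2147, against 224 and 694 in control replicates 2 and 3). In Runx1KO they were lowest in replicate 2 (518, against 2279 and 858 in replicates 1 and 3). Erythroid sums were highest in control replicate 2 (13003, against 6319 and 6811 in control replicates 1 and 3). In Runx1KO they were lowest in replicate 3 (6634, against 8246 and 7808 in replicates 1 and 2). The part of any marker list in the values of the 6 genes was not tested.

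The markers of other cell types were read beside the rise of Cpa3, Hdc and Ms4a2. Of all genes, 1.73% rose and 2.56% fell in RUNX1(41-214) against control, and 0.234% rose in Runx1KO against control. All 9 megakaryocyte and platelet markers were measured and 3 of them, Treml1, Gp5 and Itga2b (the last named after its values were seen), rose in both RUNX1(41-214) and Runx1KO cells. The summed signals of the 9 were 9390 to 12007 in RUNX1(41-214), 6720 to 7758 in Runx1KO and 3292 to 4707 in control cells, with no overlap among the groups. By gene, 8 of the 9 lay above control in RUNX1(41-214), with a median log2 fold change of 0.76. In Runx1KO 6 of the 9 did, with a median of 0.08, so the sum does not describe each marker. Of the 10 neutrophil markers, Csf3r rose in RUNX1(41-214) against control, and the sums overlapped (13913 to 16535 in RUNX1(41-214), 11157 to 15818 in Runx1KO and 9906 to 15825 in control). Of 6 measured eosinophil markers of 8, Siglecf and Il5ra rose in RUNX1(41-214) against control, and the sums were 1235 to 2544 in RUNX1(41-214), 518 to 2279 in Runx1KO and 224 to 2147 in control. Of other lineages, 2 of 8 erythroid markers rose in that comparison, and 4 of 10 monocyte, macrophage and dendritic, 2 of 7 B lymphoid and 2 of 7 T and NK markers fell. The lowest signal of the whole series was 0.53, so absence of a marker could not show as a value of 0. The part of these cells in the values of Cpa3, Hdc and Ms4a2 was not tested.

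Granule genes of mature mast cells and basophils were looked up after their values were seen. Among them, Srgn and Ctsg are not particular to these cells, and Ctsg is also one of the neutrophil and granulocyte precursor markers. Mcpt8, the basophil protease, had signals of 65.8 to 126 in RUNX1(41-214), 28.04 to 197 in Runx1KO and 75.9 to 290 in control cells. Its log2 fold change was -0.56 ± 0.53 in RUNX1(41-214) (limma adjusted p = 0.699) and -0.87 ± 0.53 in Runx1KO (adjusted p = 0.825), both against control. The mast cell tryptase Tpsb2 was between 47.6 and 57.9 in RUNX1(41-214), 44.1 and 78.3 in Runx1KO, and 60.4 and 66.5 in control cells. Tpsab1, the other tryptase, was between 22.8 and 36.9 in RUNX1(41-214), 14 and 26.9 in Runx1KO, and 17.0 and 25.5 in control cells. The chymases Cma1 and Mcpt4 were dim throughout, with Cma1 at 7.43 to 24.5 and Mcpt4 at 1.00 to 3.76 over the 9 arrays. Srgn, the proteoglycan core of many blood cell granules, was at percentile 99.5 of all genes without passing in RUNX1(41-214) relative to control cells (0.14 ± 0.07, adjusted p = 0.414). The 9 genes looked up leave out Gzmb and Ctsl, granule genes that fell in RUNX1(41-214) against control and are given below. The count of 0 that follows therefore depends on the choice of genes. Of the 9, 5 lay above control and 4 below it in RUNX1(41-214), and 0 passed there or in Runx1KO against control. The 5 were Ctsg (0.47 ± 0.40), Tpsab1 (0.31 ± 0.19), Mcpt2 (0.26 ± 0.15), Cma1 (0.15 ± 0.18) and Srgn, and the 4 were Mcpt8, Mcpt1 (-0.21 ± 0.15), Tpsb2 (-0.12 ± 0.20) and Mcpt4 (-0.03 ± 0.11). The normalized arrays of RUNX1(41-214) and control did not overlap for Tpsab1, Mcpt2 and Srgn, as for 20.3% of all genes.

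Other genes of mast cell and basophil biology were read from 9 lists of 127 genes, of which 103 were measured. The lists, too, were chosen with earlier results of these data known, so their counts describe and do not test. In RUNX1(41-214) against control 15 of the 103 rose and 4 fell (14.6% and 3.88%, where 1.73% of all genes rose and 2.56% fell). In Runx1KO against control 0 rose and 1 fell (0.234% and 0.113% of all genes), and 895 of all genes had an unadjusted p under 0.05. Relative to Runx1KO, 2 rose and 1 fell in RUNX1(41-214) (1.94% and 0.971%, where 0.299% of all genes rose and 1.06% fell). The shares of all genes given here also serve for the counts by list that follow. The 15 became 6 without RUNX1(41-214) replicate 1 and 7 without RUNX1(41-214) replicate 2, and the 2 became 0 without RUNX1(41-214) replicate 2. Without control replicate 2 the count of 0 that rose in Runx1KO against control became 2. Of the 19 called in RUNX1(41-214) against control, 8 passed in each of the 9 omissions of an array: Gzmb, Ctsl, Prkcb, Fcgr3, Clec4e, Hcst, Cd200r1 and Il4. The median log2 fold change of the 103 was 0.15 in RUNX1(41-214) and 0.11 in Runx1KO, both against control.

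Fc receptors and adaptor chains held the largest rise among these lists. Fcgr3, the activating IgG receptor that signals through Fcer1g, had signals of 954, 837 and 738 in RUNX1(41-214), 966, 533 and 1187 in Runx1KO, and 209, 32.2 and 200.41 in control cells. Both groups lay above all controls. It rose by 2.75 ± 0.52 (log2, limma adjusted p = 0.00998) in RUNX1(41-214), and was at 2.75 ± 0.52 in Runx1KO (adjusted p = 0.0527), both against control. Of the 11 measured genes of 12, 3 more rose in RUNX1(41-214): the C-type lectin Clec4e, which pairs with Fcer1g (1.62 ± 0.17, adjusted p = 0.000282), the inhibitory IgG receptor Fcgr2b (1.46 ± 0.35, adjusted p = 0.0414) and the adaptor Hcst (1.32 ± 0.20, adjusted p = 0.00265). Cd247, the zeta chain of T cell receptors, fell by 1.15 ± 0.22. Clec4e (0.91 ± 0.17) and Hcst (1.19 ± 0.20) also rose in RUNX1(41-214) relative to Runx1KO (adjusted p = 0.0232 and 0.0118).

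Surface receptors and cytokines had 5 of 16 measured genes higher in RUNX1(41-214) than in control cells and 0 lower. Siglecf, a lectin that is also one of the eosinophil markers, rose by 2.05 ± 0.40 (limma adjusted p = 0.0119), and the cytokine Il4 rose by 1.56 ± 0.29 (adjusted p = 0.00901). The beta chain of the interleukin 3 receptor, Csf2rb2, rose by 1.51 ± 0.30 and the inhibitory receptor Cd200r1 by 1.48 ± 0.26. Kit, the stem cell factor receptor used in the gate, rose by 0.57 ± 0.14 (adjusted p = 0.0415), a call lost in 5 of the 9 omissions of an array. Of the 16, 0 passed in Runx1KO against control.

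In IgE receptor signalling, 2 of 20 measured genes rose in RUNX1(41-214) against control and 1 fell. The adaptors Lat2 (1.42 ± 0.35, limma adjusted p = 0.0429) and Lcp2 (1.16 ± 0.23, adjusted p = 0.0130) were the higher ones, and the kinase gene Prkcb (-1.66 ± 0.20, adjusted p = 0.000674) was lower. Lat2 lost its call in 7 of the 9 omissions. Prkcb also fell relative to Runx1KO (-1.29 ± 0.20, adjusted p = 0.00842). None of the 20 passed in Runx1KO against control, where Lcp2 was at 1.13 ± 0.23 (adjusted p = 0.0768).

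Of the Ms4a family, to which the beta chain belongs, 2 of 11 other measured genes rose in RUNX1(41-214) against control, Ms4a6c (1.29 ± 0.33, limma adjusted p = 0.0484) and Ms4a6d (1.12 ± 0.25, adjusted p = 0.0239). The call of Ms4a6c was lost in 8 of the 9 omissions, and that of Ms4a6d was kept in 5. The median of the 11 was 0.77 in RUNX1(41-214) and -0.00 in Runx1KO, both against control. Among 15 transcription factors, Stat5a, which transmits interleukin 3 signals, rose by 0.91 ± 0.17 (adjusted p = 0.0111) and Tfec, a relative of Mitf, by 0.86 ± 0.18 (adjusted p = 0.0221) in RUNX1(41-214). The call of Tfec was kept in 5 of the 9 omissions. In Runx1KO all 15 lay above control with a median of 0.20 and 0 passed, where 49.2% of all genes lay above control.

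The granule, histamine, lipid mediator and carboxypeptidase lists held no gene that rose. Of 14 measured granule genes 2 fell in RUNX1(41-214) against control, the granzyme Gzmb (-1.37 ± 0.23, limma adjusted p = 0.00504) and the cathepsin Ctsl (-1.22 ± 0.22, adjusted p = 0.00931). Gzmb also fell in Runx1KO (-1.26 ± 0.23, adjusted p = 0.0454), a call lost in 7 of the 9 omissions. In the other lists the smallest p-values were those of the histamine receptor Hrh1 (0.62 ± 0.17 in RUNX1(41-214) against control, adjusted p = 0.0690), the leukotriene synthase Ltc4s (0.92 ± 0.24 in RUNX1(41-214) against Runx1KO, adjusted p = 0.110) and the carboxypeptidase Cpa1 (0.23 ± 0.12 in RUNX1(41-214) against Runx1KO, adjusted p = 0.579).

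**Figure D3:**
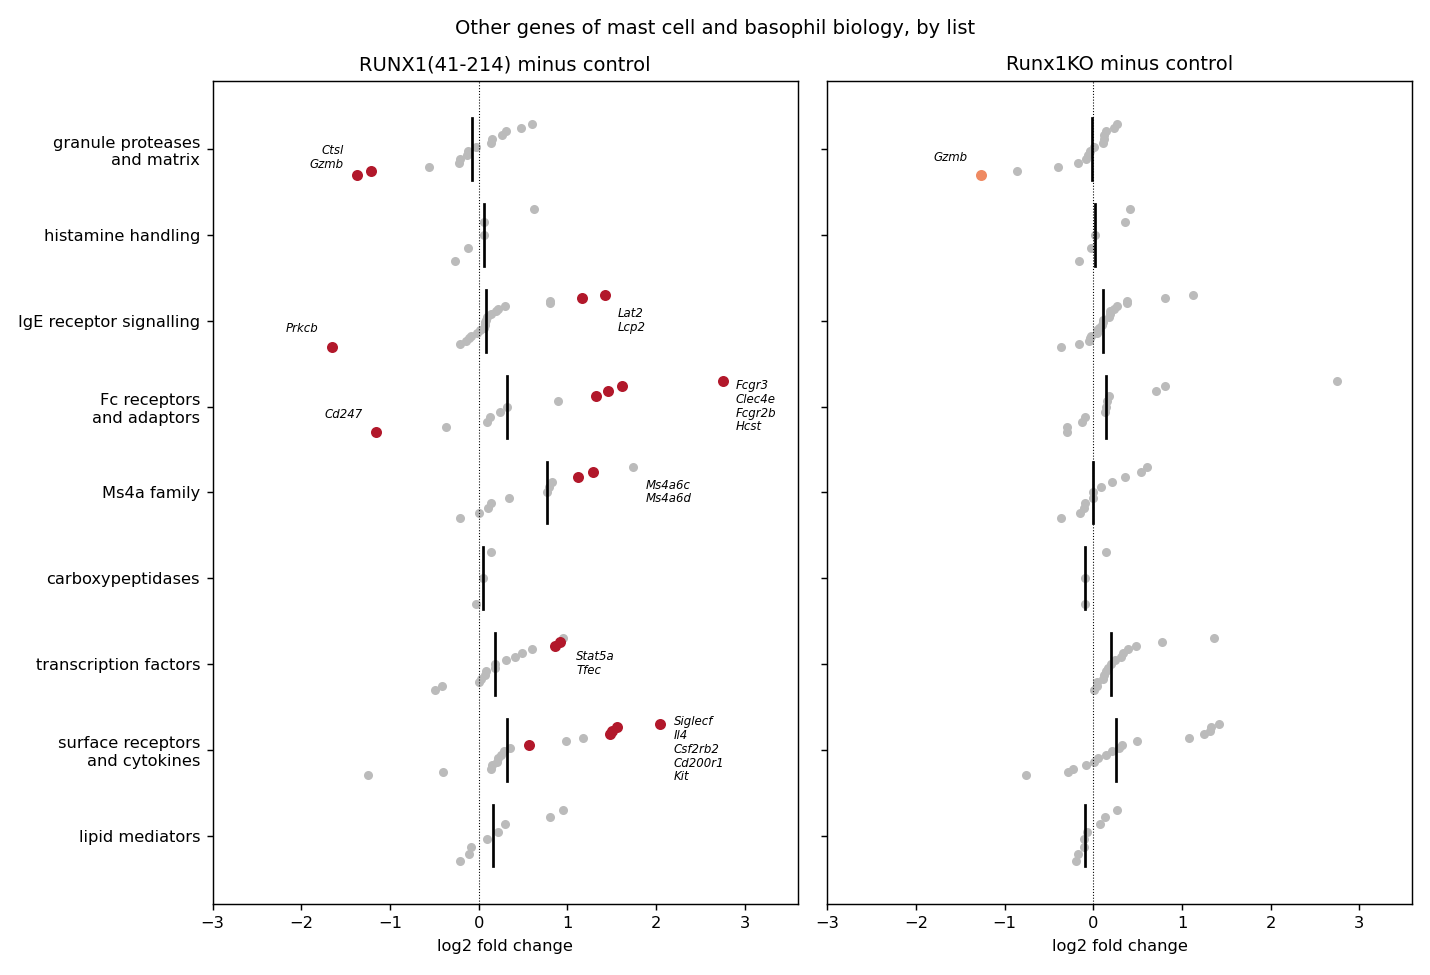
Log2 fold change (x axis) of the measured genes of 9 lists (y axis) in RUNX1(41-214) minus control and in Runx1KO minus control. Coloured, named points passed at an adjusted p under 0.05, and black bars are list medians; 19 genes passed in the left panel and 1 in the right.

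Likeness of profile was measured as the root mean square difference between log2 profiles over the 9 arrays, each centred on its own mean, among genes above the median signal. Nearest to Cpa3 were the platelet receptor Treml1 (0.44), the tight junction scaffold Tjp1 (0.45) and the keratin Krt80 (0.46). Hdc lay nearest to Fcgr3 (0.67), the ion exchanger Slc24a3 (0.73) and Tjp1 (0.79). For Ms4a2 they were the adhesion receptor Selp (0.22), Nudt7 (0.26) and the calcium-binding protein S100a6 (0.29). Selp, Nudt7 and S100a6 had fold changes of 2.09, 1.75 and 1.72 in RUNX1(41-214) against control (limma adjusted p = 7.19e-05, 0.00108 and 0.000468) and of 0.56, 0.41 and 0.10 in Runx1KO against control, where none of the 3 passed (adjusted p = 0.366, 0.798 and 0.974). These 3 genes were picked for likeness to Ms4a2 on the same 9 arrays. Fold changes like those of Ms4a2 therefore follow from the choice and are no separate result.

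The dependence of these values on the processing was drawn for all 6 genes. Cpa3 passed against control in both groups under each of the 20 alternatives, at 3.53 to 4.16 in RUNX1(41-214) and 2.65 to 3.42 in Runx1KO.

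**Figure D4:**
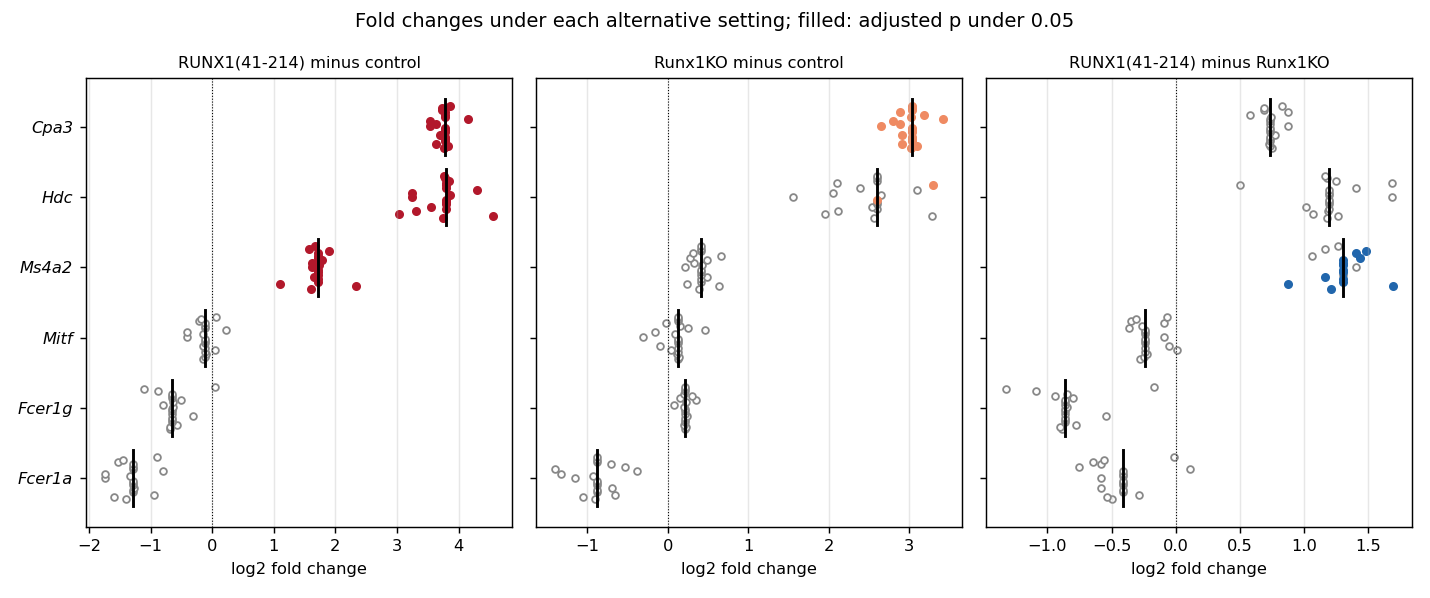
Log2 fold change (x axis) of each gene (y axis) under each alternative setting, with the reported value as a black bar. Filled points passed at an adjusted p under 0.05; Cpa3, Hdc and Ms4a2 stay right of 0 in all 3 comparisons, and Mitf lies on both sides of 0.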

How the data were processed

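Gene expression was measured on 9 Affymetrix arrays of sorted KSL cells, with biotin labelling after amplification per the labels' protocols. The deposited values are signal intensities on a linear scale, 1 per probe set and array, from 0.53 to 20215. How the authors summarised and scaled these intensities is not given in the sources used here.

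From these, 64 control probe sets were set aside, log2(signal + 16) was taken and arrays were quantile normalized. The offset pulls folds of dim genes toward 0. Gene names came from the platform annotation: 20380 probe sets carried 1 symbol, 691 several and 1555 none. For each gene the probe set of highest mean was used. A mean per group was fitted with limma 3.58.1 in R 4.3.3 (lmFit, eBayes with a variance trend), with 6 residual and 5.60 prior degrees of freedom. Tests were two-sided, with Benjamini-Hochberg adjustment over 12393 genes. The procedure was tested on simulated data. The number of arrays limits precision: log2 fold changes had a median standard error of 0.20. Promoter windows came from RefSeq (GRCm38.p6).

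The genes and lists were chosen with earlier results of these data known. Named are the 6 genes and list genes past the threshold or, in lists with none, the gene of smallest p. Also named are Kit, Ly6a and Il7r of the gate, and the 3 nearest profiles of each gene that passed. Of the gate and cell type markers past the threshold, up to 2 per list with the largest fold change are named. Alternatives varied the normalization, offset, filter on dim genes, probe sets, array weights, arrays fitted, variance trend, replicate block and single arrays. Counts of list genes under these alternatives were added after the data were seen.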

Additional observations from a re-analysis of the deposited data

How the results depend on the processing

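Each of the 18 fold changes of the 6 genes was recomputed under up to 20 alternatives, in 351 values: 334 kept direction and call, 5 lost a call (all Ms4a2 in RUNX1(41-214) against Runx1KO), 2 gained it (both Hdc in Runx1KO against control) and 10 changed sign, none of them a called result. Signs changed for Mitf in Runx1KO against control with array weights (-0.10), without the 2 arrays of highest Gapdh ratio (-0.31), without control replicate 2 (-0.16) and without Runx1KO replicate 3 (-0.02). They changed for Mitf in RUNX1(41-214) against control with the mean of its probe sets (0.051), without control replicate 3 (0.22) and without RUNX1(41-214) replicate 3 (0.06), and against Runx1KO with that mean (0.0082). Fcer1g turned to 0.049 in RUNX1(41-214) against control without RUNX1(41-214) replicate 3, and Fcer1a to 0.11 in RUNX1(41-214) against Runx1KO without Runx1KO replicate 1. The cause was not tested. Leaving out single arrays gave these results -0.16 to 0.46 for Mitf in Runx1KO against control, -0.40 to 0.22 for Mitf and -1.11 to 0.05 for Fcer1g in RUNX1(41-214) against control, and -0.75 to 0.11 for Fcer1a in RUNX1(41-214) against Runx1KO.

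Counts of called genes, 531 in RUNX1(41-214) against control, 43 in Runx1KO against control and 168 between RUNX1(41-214) and Runx1KO, were 262, 39 and 77 among the brighter genes alone, where fewer genes were tested. In Runx1KO against control 9 passed with only the 6 arrays compared, and the 168 became 371 with array weights. Leaving out single arrays gave 295 (without RUNX1(41-214) replicate 2) to 613, 14 (without Runx1KO replicate 3) to 51, and 74 (without RUNX1(41-214) replicate 2) to 208. Of the 6 genes 3, 1 and 1 passed. Among the brighter genes, which exclude Hdc, Ms4a2 and Fcer1a, 1, 1 and 0 passed. In RUNX1(41-214) against Runx1KO 0 passed with only the 6 arrays compared and 0 without the 2 arrays of highest Gapdh ratio. With single arrays left out the counts were 3 to 3, 1 to 2 and 0 to 1.

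Replicate numbers were not taken to pair the samples: deviations from group means of same-numbered arrays correlated at -0.17 to 0.42, with 3 of 9 pairs over 0.1, and 6 of 18 best matches were to the own number. Between Runx1KO and control the correlations were 0.03, 0.41 and 0.42 for replicates 1, 2 and 3, and 4 of 6 best matches were to the own number, a hint from the data and not from the design. With the replicate number as a block 539, 48 and 171 genes passed, and 2 of the 6 genes passed in Runx1KO against control, Cpa3 and Hdc (adjusted p = 0.0280). Hdc, Ms4a2 and Fcer1a lay below the median signal of all genes, where the offset understates folds most: Ms4a2 in RUNX1(41-214) against control was 2.34 with an offset of 1 and 1.11 with an offset of 50.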

Other observations

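The eosinophil markers, of a lineage close to mast cells and basophils, lay above control in RUNX1(41-214) for 6 of the 6 measured genes, with a median log2 fold change of 0.91. Of all genes, 52.5% lay above control in this comparison. Il5ra (1.16 ± 0.25, limma adjusted p = 0.0235) and Siglecf passed. The granule proteins Epx (0.55 ± 0.54, adjusted p = 0.713), Prg2 (1.23 ± 1.18, adjusted p = 0.705) and Prg3 (0.65 ± 0.57, adjusted p = 0.671), named after their values were seen, did not. Of 8 measured erythroid markers, 3 lay above control in the same comparison, with a median of -0.14. Among them Alas2 (2.20 ± 0.41, adjusted p = 0.0102) and Slc4a1 (2.91 ± 0.55, adjusted p = 0.0109) rose, and the summed signals of the list overlapped (6362 to 8496 in RUNX1(41-214) and 6319 to 13003 in control cells).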
